A study of Mus musculus with 4 samples.

Results

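Genes for matrix proteases, their inhibitors and the lysyl oxidases made up 44 of the 22911 gene symbols with a probe on the arrays. All 44 belong to the Mmp, Timp, Adamts and *Lox* families, and the choice was made with earlier results of these data known. Some genes of these families, such as *Mmp7* and *Adamts13*, were left out and placed in a list of other matrix proteolysis genes. The 44 genes are 17 matrix metalloproteinases (MMPs), 4 tissue inhibitors of metalloproteinases (TIMPs), 18 ADAMTS proteases (a disintegrin and metalloproteinase with thrombospondin motifs) and 5 lysyl oxidases. They were measured with 68 probes, each printed on 1 spot, so that 24 genes rested on 1 probe, 16 on 2 and 4 on 3.

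RNA came from mesenchymal stroma cells (MSCs) and from CD8+ T cells sorted out of subcutaneous tumors, which had formed from Bcr-Abl+ GFP+ hematopoietic progenitor cells (HPCs) placed in Matrigel, 15000 cells per mouse. The hosts were C57BL/6Ncr mice of 8 weeks, either wild type (Wt) or carrying the *Sipa1* knockout (*Sipa1*-/-), with 5 mice per genotype, and the tumors were taken on day 12. Tumor tissue of both genotypes was dissociated with collagenase IV and DNase I. MSCs were sorted as GFP- CD45- Ter119- CD31- cells and CD8+ T cells as GFP- TCRβ+ CD8+ cells, so the MSC gate excluded other cells and was not built on a mesenchymal marker. Each of the 4 conditions was read on 1 one-color array, all on 1 slide, and whether the mice of a genotype were pooled for an array is not given in the sources used here. The knockout was carried by the hosts, while the HPCs came from Wt mice per the study's text, and how much RNA of HPC origin the sorts held was not measured here.

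MMPs are zinc-dependent proteases, made as inactive precursors, that cut collagens and most other matrix proteins, and TIMPs block them by filling the active site. ADAMTS proteases trim procollagens and cut proteoglycans such as aggrecan and versican, while lysyl oxidases do the opposite work, oxidizing lysines of collagen and elastin so that the fibers become cross-linked. In tumors the fibroblastic stroma is a main source of most of these genes, with neutrophils known for *Mmp8* and *Mmp9* and macrophages for *Mmp12*.

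Levels are log2 processed signals relative to the 75th percentile of the array, so that 0 is the level of a spot at that percentile. They compare 1 gene between arrays and not 1 gene with another, since probes differ in brightness. A ratio is the difference of 2 such levels over the probes that passed the quality flags on both arrays, and 2-fold, a log2 ratio of 1, served as the threshold of size. With 1 array per condition no test or p-value could be given and no difference has a replicate check, and the number of arrays limits the precision. In sorted bulk samples, fewer cells of a type and less RNA per cell cannot be told apart. Well above background were 60.3 to 65.3% of the spots of an array. The same probe printed on 10 spots varied with a median SD of 0.04 log2 units on each array, which covers spot error only. *Sipa1* itself stood at 4.04 in Wt and 2.62 in *Sipa1*-/- MSCs and at 4.42 and 2.56 in the CD8+ T cells, lower in the knockout in both sorts but not at background, and where its probe lies relative to the deleted part is not given in the sources used here.

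The sorts were read against marker lists. The 9 T cell markers summed to 609 and 624 times the 75th percentile on the Wt and *Sipa1*-/- CD8+ T arrays and to 20.8 and 4.78 on the MSC arrays. The MSC sums depend on *Cd2*, at 4.08 in Wt and 0.56 in *Sipa1*-/-. Of the 8 T cell markers measured on both MSC arrays, 5 were higher in *Sipa1*-/-, with a median log2 ratio of 0.67. At least 2-fold higher were 3, and 3 were at least 2-fold lower. The 12 fibroblast markers summed to 1073 and 1812 on the Wt and *Sipa1*-/- MSC arrays and to 210 and 311 on the CD8+ T arrays. Without *Thy1*, which T cells also express, the CD8+ T sums were 44.8 and 135. RNA of fibroblast marker genes such as *Col1a2*, at 4.24 and 5.77, was thus measured in the CD8+ T sorts as well. On the MSC arrays the 12 B-lineage markers summed to 682 in Wt and 38.5 in *Sipa1*-/-, the 11 neutrophil markers with a probe to 761 and 853, the macrophage markers to 12.9 and 24.9, and the endothelial markers to 1.03 and 1.64. On the same arrays the erythroid markers summed to 626 in Wt and 669 in *Sipa1*-/-, and the skeletal muscle markers to 52.3 and 83.8. The 44 genes themselves summed to 205 in Wt and 642 in *Sipa1*-/- MSCs and to 18.3 and 27.7 in the CD8+ T cells.

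In MSCs, genes of all 4 families were higher in the *Sipa1*-/- tumors. Of 37 genes measured on both arrays, 35 were higher and 28 were at least 2-fold higher, against 19.3% of the 15298 genes measured, and 1 was at least 2-fold lower, against 11.3%. The median log2 ratio was 1.60, that of all genes 0.04, and 51.8% of all genes were higher by any amount. The 5 lysyl oxidases had the highest family median at 1.93, followed by 1.74 for the 3 TIMPs measured, 1.60 for 13 MMPs and 1.45 for 16 ADAMTS genes. Proteases, inhibitors and cross-linking enzymes were thus all among the genes past 2-fold. Of the 7 genes with no ratio, 5 were above background in *Sipa1*-/- MSCs only, *Mmp10* was set aside by a background flag, and *Mmp24* was not above background on any array.

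**Figure D1:**
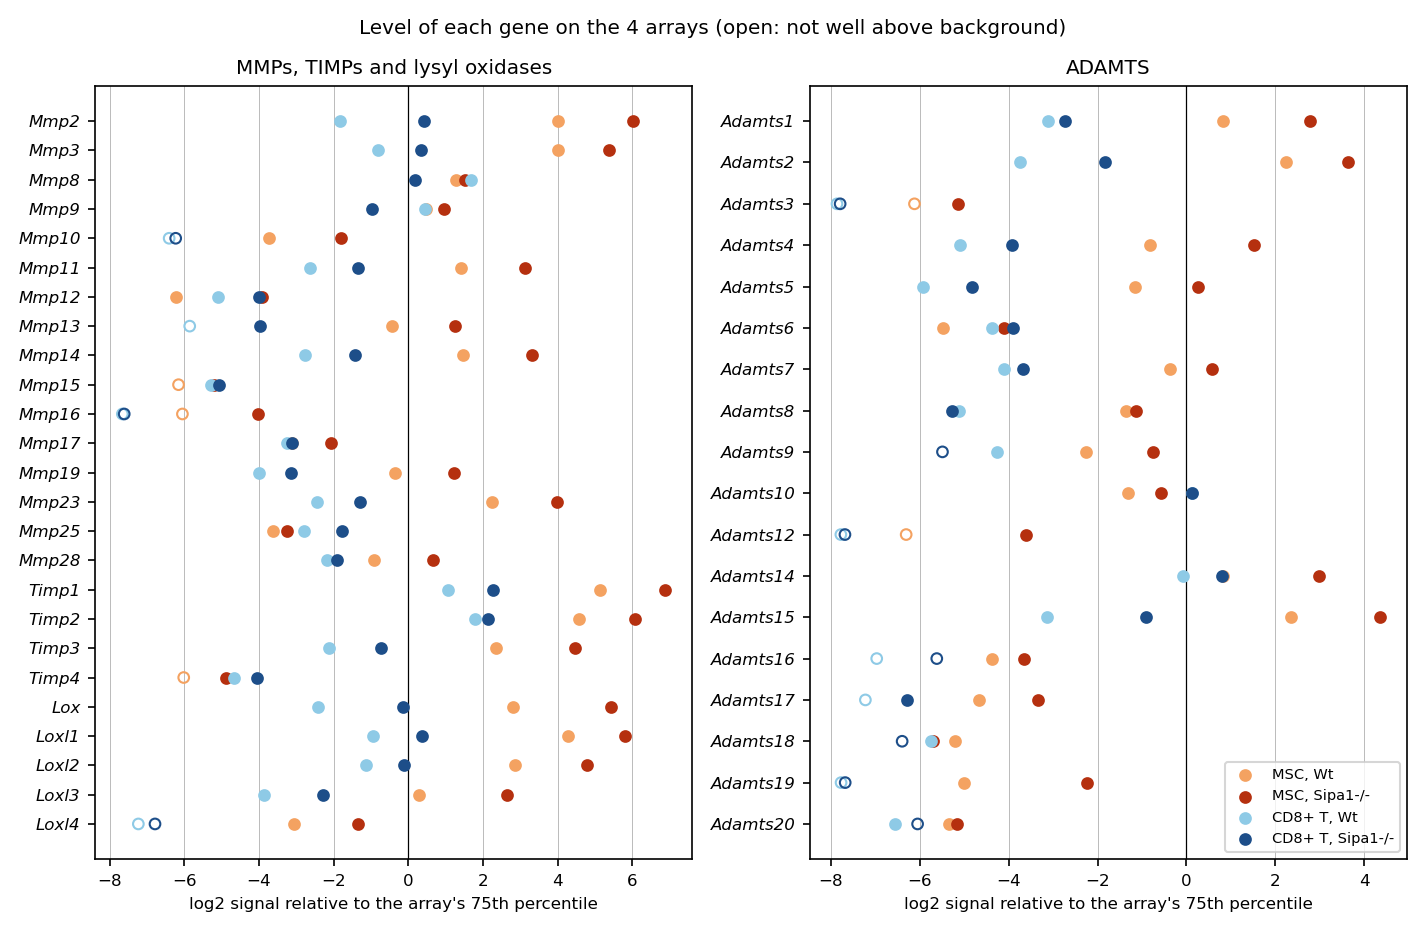
Level of each gene (rows) on the 4 arrays, as the log2 signal relative to the 75th percentile of the array (horizontal axis, 1 point per array, mean over the probes that passed the flags on at least 1 array), with open points where no such probe was well above background; Mmp24 is not drawn. Sipa1-/- MSC points lie to the right of Wt MSC points in most rows, as for Lox at 5.44 and 2.80, and Mmp8 and Mmp9 have all 4 points within 2 log2 units.

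Among the secreted MMPs, *Mmp2*, the gelatinase that degrades denatured and basement membrane collagens, stood at 4.0 in Wt and 6.01 in *Sipa1*-/- MSCs and at -1.82 and 0.41 in Wt and *Sipa1*-/- CD8+ T cells. It was 4.02-fold higher in the *Sipa1*-/- MSCs, and the lower MSC level was far above both CD8+ T levels. *Mmp9*, the other gelatinase and a neutrophil granule enzyme, stood at 0.47 and 0.95 in MSCs and at 0.46 and -0.97 in CD8+ T cells, a ratio of 0.48 in MSCs that did not reach 2-fold on either of its probes (0.37 and 0.60). The *Sipa1*-/- CD8+ T array held the lowest level of *Mmp9*. *Mmp3*, stromelysin-1, which cuts proteoglycans and activates other MMPs, stood at 4.02 and 5.37 in MSCs and at -0.80 and 0.34 in CD8+ T cells, and was 2.53-fold higher in *Sipa1*-/- MSCs. *Mmp11*, a stromal MMP known from carcinomas, stood at 1.42 and 3.13 in MSCs and at -2.62 and -1.34 in CD8+ T cells, and was 3.27-fold higher in *Sipa1*-/- MSCs. *Mmp13*, an interstitial collagenase, stood at -0.43 and 1.25 in MSCs and at -5.86, not well above background, and -3.97 in CD8+ T cells, and was 3.21-fold higher in *Sipa1*-/- MSCs. *Mmp8*, the collagenase of neutrophil granules, did not share this pattern. It stood at 1.27 and 1.51 in MSCs and at 1.68 and 0.18 in CD8+ T cells, a ratio of 0.24 in MSCs. The *Sipa1*-/- CD8+ T array again held the lowest level.

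*Mmp12*, the macrophage elastase, had the highest of the 37 ratios in MSCs, 2.98 on the log2 scale, but it was dim, and the ratio was 2.30 with flags on 1 array and 1.20 with normexp background correction, both below the 2.65 and 2.60 of *Lox* under the same settings. This value came from the 1 of its 3 probes that was above background on both MSC arrays, at -5.19 in Wt and -2.20 in *Sipa1*-/-, and that probe read -3.67 and -2.15 in CD8+ T cells. The other probes were not above background in Wt MSCs. The 9 macrophage markers measured had a median ratio of 0.99 in MSCs, and 4 of them were at least 2-fold higher. The part of macrophage RNA in the *Mmp12* value was not tested. *Mmp19* stood at -0.36 and 1.23 in MSCs over its 2 probes and was 3.02-fold higher in *Sipa1*-/-, and its brighter probe read -1.69 and -0.62 in CD8+ T cells. *Mmp28* (epilysin) stood at -0.91 and 0.67 in MSCs and at -2.18 and -1.91 in CD8+ T cells, and was 2.99-fold higher in *Sipa1*-/- MSCs. Both were higher on either MSC array than on either CD8+ T array. *Mmp10*, stromelysin-2, stood at -3.73 in Wt and -1.79 in *Sipa1*-/- MSCs, but its spot carried the flag for uneven background on the *Sipa1*-/- array and gives no ratio. It was not well above background in CD8+ T cells.

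The secreted MMPs *Mmp13*, *Mmp12*, *Mmp3*, *Mmp10* and *Mmp8* lie in the cluster of 10 Mmp genes on mouse chromosome 9. Their order there is *Mmp13*, *Mmp12*, *Mmp1b*, *Mmp3*, *Mmp1a*, *Mmp10*, *Mmp8*, *Mmp27*, *Mmp20* and *Mmp7* in the RefSeq annotation of GRCm38.p6. Neighbors in this cluster differed in MSCs, with *Mmp13*, *Mmp12* and *Mmp3* more than 2-fold higher in *Sipa1*-/- and *Mmp8* at a ratio of 0.24. As a description, sequences are shown from base -100 to base 20 around the start sites of *Mmp13*, *Mmp12*, *Mmp3*, *Mmp10* and *Mmp8*. They come from RefSeq on GRCm38.p6, and capitals mark the letters TGAGTCA or TGACTCA, the binding motif of AP-1 (Fos and Jun proteins), each being the reverse complement of the other. *Mmp12* has 2 promoter entries.
Mmp13, chr9:7272414-7272533, + strand: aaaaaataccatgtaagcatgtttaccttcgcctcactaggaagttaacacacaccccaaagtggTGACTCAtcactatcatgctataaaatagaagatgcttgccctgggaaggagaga
Mmp12, entry at the gene start, chr9:7344297-7344416, + strand: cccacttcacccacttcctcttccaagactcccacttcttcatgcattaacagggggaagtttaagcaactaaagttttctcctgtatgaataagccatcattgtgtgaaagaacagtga
Mmp12, entry downstream, chr9:7347274-7347393, + strand: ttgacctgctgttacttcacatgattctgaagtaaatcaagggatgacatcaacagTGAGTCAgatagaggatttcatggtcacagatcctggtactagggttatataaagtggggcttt
Mmp3, chr9:7445722-7445841, + strand: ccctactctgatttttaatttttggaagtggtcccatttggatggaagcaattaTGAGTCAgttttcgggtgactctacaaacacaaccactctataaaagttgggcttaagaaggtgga
Mmp10, chr9:7502242-7502361, + strand: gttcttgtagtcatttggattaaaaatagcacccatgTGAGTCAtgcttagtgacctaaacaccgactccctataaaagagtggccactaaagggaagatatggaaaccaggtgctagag
Mmp8, chr9:7558329-7558448, + strand: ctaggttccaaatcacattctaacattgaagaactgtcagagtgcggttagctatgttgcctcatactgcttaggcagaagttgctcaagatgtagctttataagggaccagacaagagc
The motif began at base -35 of *Mmp13*, -44 of the downstream *Mmp12* entry, -46 of *Mmp3* and -63 of *Mmp10*, and it was not in the 300 bases, from -250 to 50, of the other *Mmp12* entry or of *Mmp8*. In windows of this length, 5.20% of 32851 RefSeq promoters held the motif on either strand, or 5.95% of the 27025 genes with an entry. Of the 44 genes, 26 had a promoter entry, and these 4 (15.4%), all from this 1 cluster, were the only ones that held it. Neighbors in a cluster are not independent cases. A match of letters is a description of sequence and not of binding, and whether the motif bears on the levels was not tested.

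Of the membrane-anchored MMPs, *Mmp14*, which activates the *Mmp2* precursor at the cell surface, stood at 1.46 and 3.31 in Wt and *Sipa1*-/- MSCs and at -2.78 and -1.42 in CD8+ T cells, and was 3.62-fold higher in *Sipa1*-/- MSCs. *Mmp23* stood at 2.25 and 3.99 in MSCs and at -2.45 and -1.29 in CD8+ T cells, and was 3.35-fold higher. *Mmp17*, held in the membrane by a lipid anchor, stood at -3.12 and -2.06 in MSCs and at -3.25 and -3.13 in CD8+ T cells, just past the threshold at 2.08-fold. For *Mmp17* the *Sipa1*-/- MSC array alone stood apart, and the other 3 arrays lay within a narrow range. *Mmp25*, known as leukolysin from its expression in neutrophils, stood at -3.63 and -3.24 in MSCs and at -2.80 and -1.77 in CD8+ T cells, a ratio of 0.38 in MSCs. *Mmp16* was not well above background in Wt MSCs (-6.05) and stood at -4.02 in *Sipa1*-/- MSCs, at least 3.57-fold higher, and it was not well above background in CD8+ T cells. *Mmp15*, likewise below the limit in Wt MSCs, was at least 1.57-fold higher in *Sipa1*-/-.

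The inhibitors were higher in *Sipa1*-/- MSCs together with the proteases. *Timp1*, a secreted inhibitor of most MMPs, stood at 5.14 and 6.89 in Wt and *Sipa1*-/- MSCs and at 1.06 and 2.28 in CD8+ T cells, and was 3.35-fold higher in *Sipa1*-/- MSCs. *Timp2*, which takes part in the activation of the *Mmp2* precursor by *Mmp14* as well as in inhibition, stood at 4.58 and 6.08 in MSCs and at 1.80 and 2.13 in CD8+ T cells, and was 2.83-fold higher. *Timp3*, which binds to the matrix and also inhibits ADAMTS proteases, stood at 2.34 and 4.48 in MSCs and at -2.12 and -0.73 in CD8+ T cells, and was 4.39-fold higher. All 3 were brighter in either MSC array than in either CD8+ T array. *Timp4* was not well above background in Wt MSCs (-6.02) and stood at -4.88 in *Sipa1*-/- MSCs, at least 1.97-fold higher, with -4.68 and -4.05 in CD8+ T cells.

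All 5 lysyl oxidases were at least 2-fold higher in *Sipa1*-/- MSCs. *Lox*, the founding member, stood at 2.80 and 5.44 in MSCs and at -2.43 and -0.15 in CD8+ T cells, and was 6.26-fold higher. A second *Lox* probe, left out of this ratio for uneven background, read -0.22 and 2.41 in MSCs. *Loxl1*, which cross-links elastin, stood at 4.28 and 5.80 in MSCs and at -0.94 and 0.36 in CD8+ T cells, and was 2.88-fold higher. *Loxl2*, an oxidase of collagen IV, stood at 2.86 and 4.79 in MSCs and at -1.15 and -0.11 in CD8+ T cells, and was 3.80-fold higher. Within the family *Loxl1* had the lowest ratio and *Lox* the highest. *Loxl3* stood at 0.29 and 2.64 in MSCs, a 5.11-fold difference, and at -3.87 (on a spot with uneven background) and -2.30 in CD8+ T cells. *Loxl4* stood at -3.07 and -1.35 in MSCs, a 3.28-fold difference that all 3 of its probes shared (1.68 to 1.78), and at -7.23 and -6.79, not well above background, in CD8+ T cells, and with normexp the MSC ratio was 1.08.

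Of the ADAMTS genes, the procollagen N-proteinases *Adamts2* and *Adamts14*, which remove the amino-terminal propeptide of fibrillar procollagens, were both past 2-fold. *Adamts14* stood at 0.82 and 2.99 in MSCs and at -0.08 and 0.81 in CD8+ T cells, and was 4.50-fold higher in *Sipa1*-/- MSCs on 2 closely matching probes (2.16 and 2.18). *Adamts2* was 2.80-fold higher on the probe that passed the flags, at -0.82 and 0.67 in MSCs and at -7.42, not well above background, and -5.08 in CD8+ T cells, while a brighter probe, set aside for uneven background, read 5.28 and 6.61. *Adamts3*, which acts on procollagen II, was at least 1.63-fold higher in *Sipa1*-/- MSCs and not well above background on the other arrays.

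The proteoglycan-cutting members behaved unevenly. *Adamts4*, an aggrecanase, stood at -0.83 and 1.51 in MSCs and at -5.10 and -3.92 in CD8+ T cells, and was 5.06-fold higher in *Sipa1*-/- MSCs. *Adamts15* stood at 2.35 and 4.35 in MSCs and at -3.13 and -0.92 in CD8+ T cells, and was 4.02-fold higher. *Adamts1* stood at 0.83 and 2.79 in MSCs and at -3.12 and -2.73 in CD8+ T cells, and was 3.89-fold higher. These 3 had the highest ratios of the 7 genes in this group. *Adamts5*, the other main aggrecanase and the neighbor of *Adamts1* on chromosome 16, stood at -1.16 and 0.26 in MSCs and was 2.67-fold higher, with 2 probes at 1.41 and 1.42, and its brighter probe read -5.12 and -4.11 in CD8+ T cells. *Adamts9*, a versican-cutting member, stood at -2.25 and -0.76 in MSCs and was 2.81-fold higher. By contrast *Adamts8*, which lies next to *Adamts15* on chromosome 9, stood at -1.37 and -1.14 in MSCs, a ratio of 0.23, and *Adamts20* had a ratio of -0.14 at a level near -4.83 in Wt. The sign for *Adamts20* depended on the processing, with 0.18 with flags on 1 array and 0.06 with the series matrix. The adjacent *Adamts15* and *Adamts8* thus differed in MSCs, with ratios of 2.01 and 0.23. The adjacent *Adamts1* and *Adamts5* were both past 2-fold, at 1.96 and 1.42.

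Among the remaining ADAMTS genes, *Adamts19*, whose substrate is not known, stood at -5.00 in Wt and -2.23 in *Sipa1*-/- MSCs, a ratio of 2.77 that came to 1.17 with normexp, and read -7.77 and -7.68, not well above background, in CD8+ T cells. *Adamts12*, which cuts cartilage oligomeric matrix protein, was not well above background in Wt MSCs (-6.31) and stood at -3.61 in *Sipa1*-/- MSCs, at least 4.75-fold higher. *Adamts7*, its relative, stood at -0.36 and 0.58, a ratio of 0.94. *Adamts17* stood at -4.01 and -2.30 in MSCs and was 3.27-fold higher, on probes that ranged from 1.31 to 2.11, and over its 3 probes it stood at -7.23, not well above background, and -6.29 in CD8+ T cells. *Adamts16* had a ratio of 0.71. Of the fibrillin-associated pair, *Adamts6* stood at -5.48 and -4.11 in MSCs and at -4.37 and -3.90 in CD8+ T cells and was 2.57-fold higher, and *Adamts10* had a ratio of 0.74. *Adamts18* was the only gene at least 2-fold lower in *Sipa1*-/- MSCs, and its level was low. It fell by 1.11 on the log2 scale on 1 probe, at -4.13 in Wt and -5.24 in *Sipa1*-/-, while its second probe was below background on both arrays, and with normexp background correction the ratio was -0.28. In CD8+ T cells it stood at -5.75 and, not well above background, -6.40 over both probes.

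These differences stood beside higher fibroblast markers and lower B-lineage markers on the same arrays. All 11 fibroblast markers measured were higher in *Sipa1*-/- MSCs, 7 of them at least 2-fold, with a median of 1.56, so that 20 of the 37 genes lay above that median and 17 below it. Within 1 log2 unit of it were 28 of the 37, with 3 more than 1 unit above and 6 more than 1 unit below. The marker list was not uniform, with *Col1a1*, *Col1a2* and *Col3a1*, the chains of the main fibrillar collagens, at ratios of 0.26, 0.35 and 0.38 and *Postn* (periostin) at 2.54. Of the 11 B-lineage markers measured, 11 were at least 2-fold lower in *Sipa1*-/- MSCs, with a median of -4.22, and 6 pan-leukocyte markers had a median of -1.85. The neutrophil median was 0.22, the pericyte and smooth muscle median 0.62 and the endothelial median -0.03. Hematopoietic RNA differed between the MSC arrays, and the part of this difference, or of the share of fibroblasts, in the ratios was not tested.

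**Figure D2:**
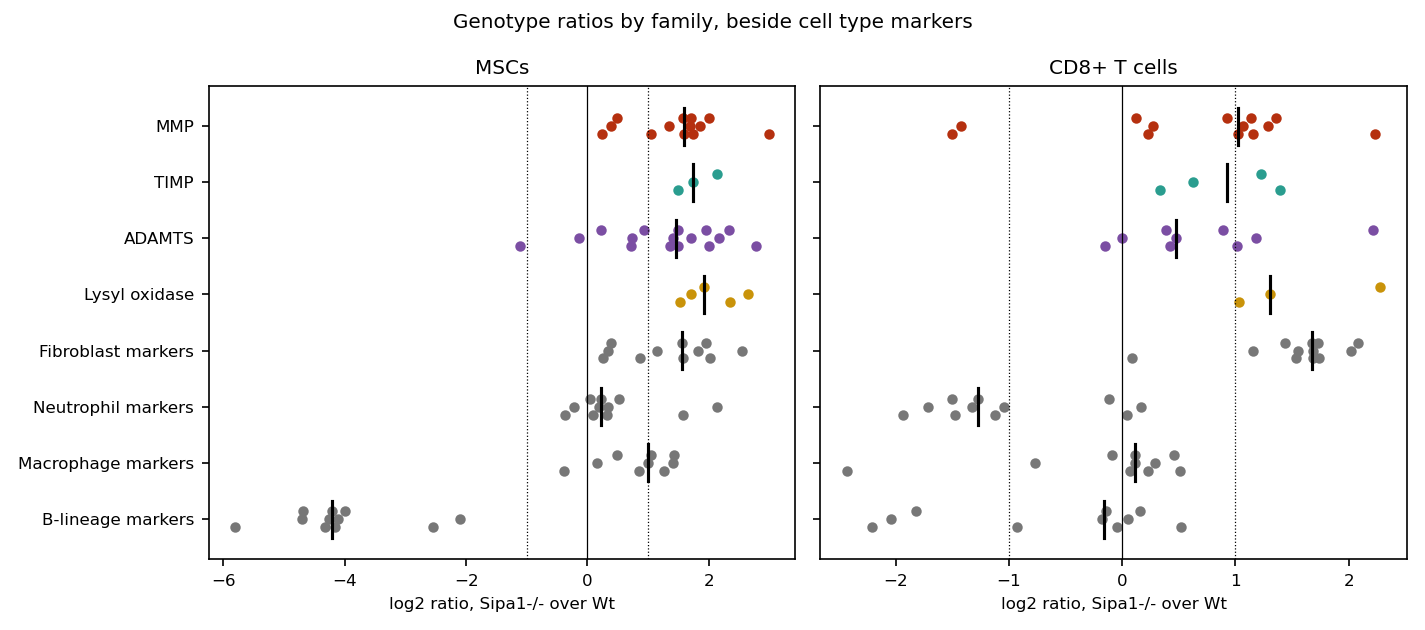
Log2 ratio of Sipa1-/- over Wt (horizontal axis, 1 point per gene, black bar at the median of the list) for the 4 families and 4 marker lists in either sort, with dotted lines at 2-fold; the panels have different scales. In MSCs the family medians run from 1.45 to 1.93 around the fibroblast median of 1.56, while the B-lineage median is -4.22.

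Where a gene had several probes that passed on both MSC arrays, they read alike. This held for 11 genes, with the same sign on all probes in 11 of 11, a median difference between probes of 0.11 log2 units and a largest difference of 0.80, for *Adamts17*. Of the 28 genes past 2-fold, 25 stayed past it under each of the 8 alternative ways of processing that gave them a value, and *Adamts6*, *Adamts17* and *Mmp17* did not, at lowest values of 0.30, 0.89 and 0.62.

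In CD8+ T cells the same families were measured at low levels, and most were again higher in the *Sipa1*-/- sort. Of 29 genes measured on both arrays, 26 were higher, 15 were at least 2-fold higher, against 2.66% of the 14339 genes measured, and 2 were at least 2-fold lower, against 1.4%. The median ratio was 1.01, that of all genes -0.02, and 46.1% of all genes were higher by any amount. The highest were *Lox* at 2.28, *Mmp2* at 2.23 and *Adamts15* at 2.21, followed by *Timp3* at 1.39, *Mmp14* at 1.35, *Loxl1* at 1.31, *Mmp11* at 1.29, *Timp1* at 1.22, *Adamts4* at 1.18, *Mmp23* at 1.15 and *Mmp3* at 1.14. *Mmp19*, *Loxl2*, *Mmp25* and *Adamts5* lay just past 2-fold, at ratios of 1.01 to 1.06, and the probes of *Loxl2* disagreed, at 0.42 and 1.65. *Mmp13* was not well above background in Wt and at least 3.02-fold higher in *Sipa1*-/-, and *Adamts9* was the reverse, at -4.25 in Wt and -5.49, not well above background, in *Sipa1*-/-, where it was at least 2.36-fold lower.

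Fibroblast markers moved with these genes. All 12 were higher in the *Sipa1*-/- CD8+ T sort, 11 of them at least 2-fold, with a median of 1.68, and the 1 under 2-fold was *Thy1* (0.09). *Col1a1* stood at 2.74 in Wt and 4.29 in *Sipa1*-/- and *Postn* at -1.42 and 0.66. The T cell markers had a median ratio of 0.01. The part of fibroblast RNA in the protease and lysyl oxidase ratios of this sort was not tested. With normexp background correction 6 of the genes remained at least 2-fold higher and the median was 0.43. The ratios of *Adamts15* and *Lox* were then 1.38 and 1.62, and those of *Adamts4* and *Adamts5* 0.33 and 0.32. Past 2-fold under each alternative that gave a value were *Lox*, *Loxl1*, *Mmp2*, *Adamts15*, *Timp1* and *Timp3*.

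Of the genes measured on both CD8+ T arrays, the 2 lower by at least 2-fold in *Sipa1*-/- were *Mmp8* and *Mmp9*, enzymes of neutrophil granules. *Mmp8* fell by 1.50 and *Mmp9* by 1.43 on the log2 scale, the latter with both probes alike (-1.36 and -1.49), and both stayed past 2-fold under each alternative that gave a value. Neutrophil markers were lower beside them. Of 11 measured, 8 were at least 2-fold lower, with a median of -1.27, among them the chemokine receptor gene *Cxcr2* (-1.93), *Lcn2* (-1.71), *Ltf* (-1.51) and *S100a8* (-1.48). The others, *Csf3r* (-0.12), *Mpo* (0.16) and *Elane* (0.04), had ratios near 0. Other lists and genes were lower too, with a median of -1.22 for the 4 erythroid markers measured, all at least 2-fold lower, and ratios of -2.43 for *Cd14* of the macrophage list and -2.21 and -2.04 for *Igll1* and *Vpreb1* of the B-lineage list. The summed neutrophil signal was 653 in Wt and 341 in *Sipa1*-/- CD8+ T cells. The part of RNA of these cell types in the lower *Mmp8* and *Mmp9* levels was not tested. *Mmp25* did not follow them, being 2.04-fold higher in the *Sipa1*-/- sort, although its value with normexp was 0.63.

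The other genes measured in CD8+ T cells stayed under 2-fold. They were *Mmp12* (0.92), *Adamts14* (0.89), *Timp4* (0.62), *Adamts6* (0.47), *Adamts7* (0.42), *Adamts1* (0.39), *Timp2* (0.33), *Mmp28* (0.27), *Mmp15* (0.22), *Mmp17* (0.12), *Adamts10* (0.00) and *Adamts8* (-0.15). *Adamts10* stood at 0.12 and 0.13 in Wt and *Sipa1*-/- CD8+ T cells, a level without a visible difference. *Adamts2* and *Adamts17* were above background, on a probe that passed the flags, in *Sipa1*-/- only, with bounds of 1.40-fold and 1.41-fold, and *Adamts18* and *Adamts20* in Wt only, with bounds of 1.11-fold and 1.19-fold. The brighter *Adamts2* probe was above background on both arrays but had uneven background in Wt. It read -0.09 in Wt and 1.425 in *Sipa1*-/-, a ratio of 1.52. Of the others, 8 had no passing probe above background on either array, among them *Adamts19*, *Adamts12* and *Loxl4*, and *Loxl3* was set aside by the flag for uneven background in Wt.

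On separate arrays, not shown to come from separate mice, both genotype ratios could be had for 27 genes. Of these, 24 were higher in *Sipa1*-/- in both sorts, against 28.4% of the 13781 genes measured in both, 14 were at least 2-fold higher in both, against 2.26%, and the MSC ratio was the larger in 24, against 49.4%. For *Mmp2*, *Adamts15* and *Mmp25* the CD8+ T ratio was the larger. *Mmp9*, with an MSC ratio of 0.48 and a CD8+ T ratio of -1.43, and *Mmp8*, with 0.24 and -1.50, differed most among genes measured with the same probes in both sorts. For *Mmp12* the ratios of 2.98 and 0.92 rested on different sets of probes, and the probe shared by both gave 2.98 and 1.53. Whether the ratios differ between the sorts beyond the error of single arrays was not tested.

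**Figure D3:**
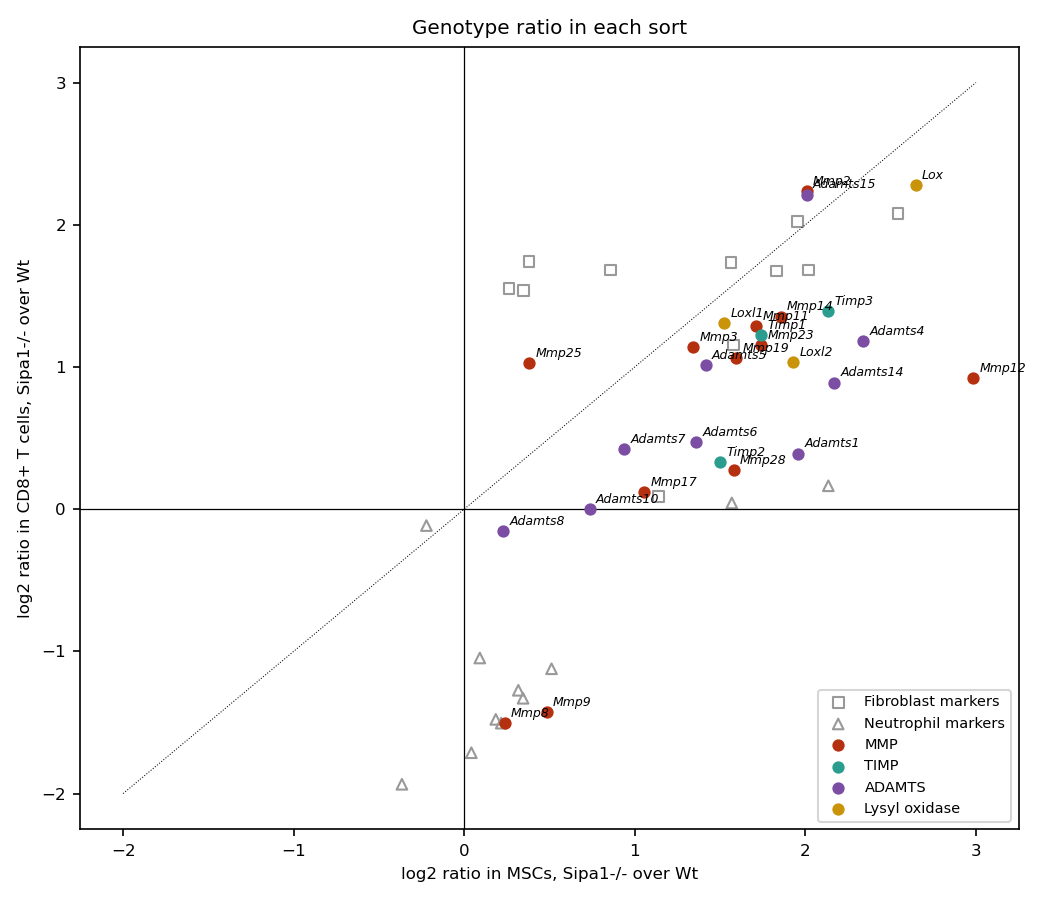
Log2 ratio of Sipa1-/- over Wt in MSCs (horizontal axis) against that in CD8+ T cells (vertical axis) for the 27 genes measured in both, colored by family, with open squares for fibroblast and open triangles for neutrophil markers and a dotted line where both ratios are equal. Mmp8 and Mmp9 lie among the neutrophil markers below 0 on the vertical axis, and 24 of the 27 genes lie below the line.

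Set against CD8+ T cells of the same genotype, MSCs held far more of most of these RNAs. In Wt tumors, 20 of 28 genes measured were at least 2-fold higher in MSCs, against 17.3% of the 14225 genes measured, and 3 were at least 2-fold lower, against 12.8%, with a median log2 difference of 3.96, and 23 were higher by any amount, against 46.6%. In *Sipa1*-/- tumors, 27 of 33 were at least 2-fold higher, against 21.9% of 14300 genes, and 1 was at least 2-fold lower, against 18.7%, with a median of 4.54, and 27 were higher by any amount, against 42.9%. The fibroblast markers had medians of 4.51 and 4.62 in the same comparisons. The widest differences were those of *Mmp2* (5.82), *Adamts15* (5.47), *Lox* (5.22) and *Loxl1* (5.22) in Wt, and of *Adamts2* (5.75), *Mmp2* (5.60), *Lox* (5.59) and *Adamts1* (5.52) in *Sipa1*-/-. The value of *Adamts2* rested on a CD8+ T level of -5.08, near background, and was 3.16 with normexp. *Mmp13* was not well above background in Wt CD8+ T cells and at least 35.0-fold higher in Wt MSCs, and *Loxl4* was at least 5.63-fold higher in Wt MSCs and at least 17.6-fold higher in *Sipa1*-/- MSCs.

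A few genes did not follow the stroma. *Mmp8* differed by -0.41 and *Mmp9* by 0.01 between the sorts in Wt tumors, and by 1.33 and 1.92 in *Sipa1*-/- tumors, where their CD8+ T levels were lower. *Adamts10* was lower in MSCs than in CD8+ T cells in both genotypes, by a difference of -1.43 in Wt and -0.70 in *Sipa1*-/-, and so was *Mmp25*, at -0.83 and -1.48. *Mmp12* and *Adamts6* were lower in MSCs in Wt, at -1.52 and -1.10, and closer to equal in *Sipa1*-/-, at -0.18 and -0.21. In Wt, *Adamts10*, *Mmp12* and *Adamts6* did not stay past 2-fold under each alternative. Their differences were as small as -0.98, -0.56 and -0.36. *Mmp17* was at nearly the same level in both Wt sorts (0.13). *Timp4* was not well above background in Wt MSCs and at least 2.27-fold higher in Wt CD8+ T cells, with a difference of -0.83 in *Sipa1*-/-. For *Mmp15* the bound was 1.49-fold in the same direction and the *Sipa1*-/- difference -0.15. Of the 27 genes measured in both genotypes, 24 had the larger difference in favor of MSCs in *Sipa1*-/- tumors, which restates from the same 4 levels that their genotype ratio was larger in MSCs.

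**Figure D4:**
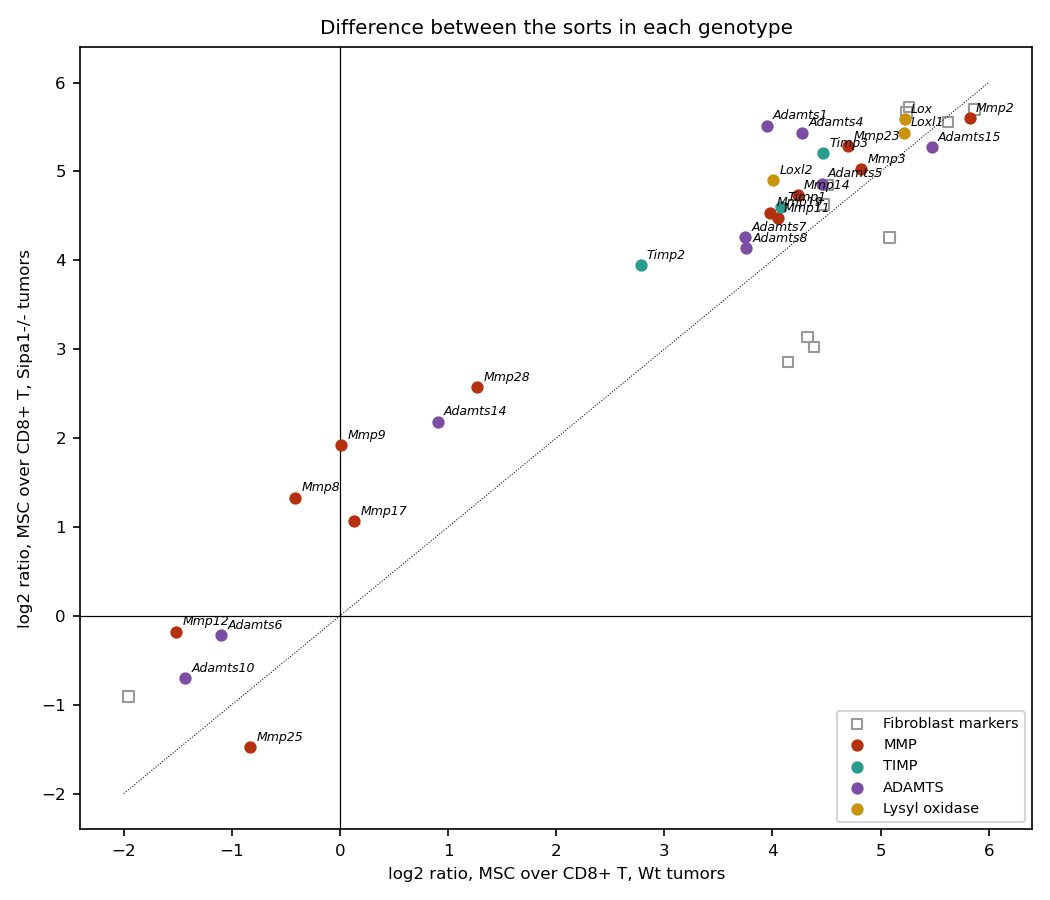
Log2 ratio of MSCs over CD8+ T cells in Wt tumors (horizontal axis) against that in Sipa1-/- tumors (vertical axis) for the 27 genes measured in both, colored by family, with open squares for fibroblast markers and a dotted line where both are equal. Most points lie above 3.7 on both axes, and Mmp12, Adamts6, Adamts10 and Mmp25 lie below 0 on both.

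Other genes of matrix proteolysis, taken as a list of 50 of which 49 had a probe, moved in MSCs in the same direction as the 44. Of 40 measured, 38 were higher in *Sipa1*-/- MSCs, against 51.8% of all genes measured, and 32 at least 2-fold, against 19.3%. None was 2-fold lower, against 11.3%, and the median was 1.49. The highest were *A2m* (2.51), encoding the broad protease trap alpha-2-macroglobulin, *Plau* (2.48), the urokinase that generates plasmin, and *Thbs2* (2.43), the matricellular thrombospondin-2. *Plau* stood at -1.96 in Wt and 0.52 in *Sipa1*-/- MSCs. The 2 that were lower were *Adam10* (-0.44), a membrane sheddase, and *Ctss* (-0.08), a cysteine protease of antigen-presenting cells, and the next lowest was *Spock1* (0.52). In CD8+ T cells 37 of these genes were measured, with a median of 0.40. Of them 31 were higher, against 46.1% of all genes measured, and 11 at least 2-fold higher, against 2.66%. At least 2-fold lower were 2, against 1.4%, *Plaur* (-1.38), the urokinase receptor, and *Thbs1* (-1.14).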

How the data were processed

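The sample labels give Agilent Feature Extraction 9.1 and the file headers version 12.0.3.1, and per the file headers the deposited values are one-color spot intensities after background correction in the authors' software, without normalization between arrays. The deposited series matrix holds linear intensities, each array's processed signal times 1 constant, and was used as an alternative.

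Levels were log2 of the processed signal minus the 75th percentile of each array's 59305 non-control spots. Probes were kept by the flags named in the study's methods (not saturated, even spot and background, positive and significant, well above background) on both arrays compared, and means were taken first over the spots of 1 probe and then over a gene's probes. The array tables pair no probe with a gene symbol here, so symbols came from accessions matched to RefSeq transcripts (table on GRCm38.p6), which named 57.6% of the non-control spots. A gene with a passing probe on 1 array of a pair only received a lower bound, against the higher of its own signal and the lowest signal well above background on the dim array, given as "at least". No test was possible with 1 array per group. The script was tested on simulated data. The sum of fibroblast markers without Thy1 was added after seeing the data.

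The members and lists were chosen with earlier results of these data known. Named with values by array were genes past 2-fold in either genotype comparison, TIMPs and lysyl oxidases, and the other genes by ratio or count, and of the other matrix proteolysis genes the 3 most extreme in each direction in MSCs, with the 2 past 2-fold lower in CD8+ T cells added after their values were seen. Alternatives were flags on 1 array, no flags, median shift, quantile normalization, the series matrix, normexp (offset 50) on the median spot signal, restriction to genes above the median signal, and the brightest probe alone. Python 3.11.15, numpy 2.4.6, pandas 2.3.3, matplotlib 3.10.9, R 4.3.3 and limma 3.58.1 were used.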

Additional observations from a re-analysis of the deposited data

Results flagged for a closer look

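*Mmp8*, *Mmp9* and *Adamts9* had genotype differences of opposite sign in the sorts, with at least 1 of the differences past 2-fold. For *Mmp8* and *Mmp9* only the CD8+ T difference was past 2-fold. The *Mmp8* ratio of *Sipa1*-/- over Wt was 0.24 in MSCs and -1.50 in CD8+ T cells, a difference of 1.74 log2 units. The *Mmp9* ratio was 0.48 and -1.43, a difference of 1.91 log2 units. With median shift the MSC ratios of *Mmp8* and *Mmp9* were 0.10 and 0.34. Neutrophil markers had medians of the same signs, 0.22 for the MSC sort against -1.27 for the CD8+ T sort, so these signs were not particular to *Mmp8* and *Mmp9*. *Adamts9* had a ratio of 1.49 in MSCs. It was not well above background in *Sipa1*-/- CD8+ T cells, which gave a bound of -1.24 there. The difference was at least 2.73 log2 units. The bound rested on 1 probe, dim at -4.25 in Wt CD8+ T cells and at -5.49 in *Sipa1*-/-. With 1 array per condition these differences were not tested.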

How the results depend on the processing

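No paired analysis was possible because each group had 1 array, so that the groups shared a single replicate number. No gene of the 44 past 2-fold in any of the 4 comparisons changed direction under an alternative that gave it a value. The count at least 2-fold higher in *Sipa1*-/- MSCs (28) stayed within 1.5 times under all 8 alternatives. The MSC median of 1.60 was 1.46 with median shift, 1.66 with quantile normalization, 1.80 with the series matrix, 1.37 with normexp and 1.73 above the median signal, and the count at least 2-fold lower went from 1 to 0 without flags, with the series matrix, with normexp and above the median signal. In CD8+ T cells the count of 15 was 6 with normexp and 3 of 8 above the median signal, and the median of 1.01 was 0.69 without flags, 0.86 with median shift, 0.88 with quantile normalization, 1.14 with the series matrix, 0.43 with normexp and 0.61 above the median signal. Between the Wt sorts the median of 3.96 was 3.69 with flags on 1 array, 2.78 without flags, 3.73 with median shift, 3.86 with quantile normalization, 4.42 with the series matrix, 2.48 with normexp and 4.08 above the median signal, where 10 of 13 genes were at least 2-fold higher, and the count of 3 lower was 1 with the series matrix, 1 with normexp and 0 above the median signal. Between the *Sipa1*-/- sorts the median of 4.54 was 4.31 with flags on 1 array, without flags and with median shift, 5.06 with the series matrix, 3.39 with normexp and 4.90 above the median signal, and the count of 1 lower was 2 with median shift or quantile normalization and 0 with the series matrix, with normexp and above the median signal. The scale moved the median of all genes: with median shift it was -0.10 in MSCs, -0.17 in CD8+ T cells, -0.29 between the Wt sorts and -0.41 between the *Sipa1*-/- sorts, and with the series matrix 0.25, 0.11, 0.39 and 0.34. Genes higher made up 63.1% of all genes past 2-fold in MSCs, against 54.1% with median shift and 74.1% with the series matrix. In CD8+ T cells the share was 65.5%, against 52.5% with median shift, 52.4% with normexp, 48.9% above the median signal and 76.3% with the series matrix. Between the Wt sorts it was 57.4%, against 45.5% with median shift and 76.6% with the series matrix, and between the *Sipa1*-/- sorts 54.0%, against 42.9% and 76.3%. Genes near background, most of them in CD8+ T cells, are the least certain, and normexp, which adds an offset, shrinks their ratios by construction.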
